A study of Mus musculus with 9 samples.

Results

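Myh1, Myh2, Myh4, Myh7, Tnnt1, Tnnt3, Tnni1, Tnni2, Atp2a1 and Atp2a2 are 10 genes for the fast and slow forms of proteins of the skeletal muscle fibre. They were taken by name from a table of 25652 mouse genes, and all 10 passed the filter on low counts, as 10 of 14794 genes tested. Poly(A) RNA was sequenced from thoracic tissue of wild-type (WT) mice after talc, a mineral powder that makes the lung stick to the chest wall. Each mouse was given 200 µL of talc in saline at 2.0 g/kg into the left side of the chest, by needle through the diaphragm. Tissue was taken 30 min later, which the labels call day 0, and on day 3 and day 9, with 3 libraries a day, numbered 1, 2 and 3 on day 0 and 1, 3 and 4 at both later days. All 9 libraries share the genotype, the talc and the injection, no untreated mice were analysed, and time since talc cannot be told apart from time since the injection. Strain, age and sex were not stated in the sources used. The labels call the tissue adhesion tissue in one field and left lung attached to the chest in another, and no label states that the 3 libraries of a day are from 3 different animals. Where libraries share an animal, a p-value reflects the spread of the samples alone, which may be technical.

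A skeletal muscle fibre contracts when myosin heavy chain pulls on actin, when troponin T and troponin I let it do so in the presence of calcium, and when a calcium pump of the sarcoplasmic reticulum then clears the calcium. Each of these parts comes in a fast and a slow form encoded by a separate gene. Among myosins, Myh4 encodes the fastest (IIB) chain, Myh1 the IIX chain, Myh2 the IIA chain of fast oxidative fibres, and Myh7 the slow chain, which is also a heart gene. Tnnt3 and Tnni2 encode the fast troponins T and I, and Tnnt1 and Tnni1 the slow ones. Atp2a1 encodes the fast calcium pump (SERCA1). Atp2a2 encodes the pump of slow fibres and heart (SERCA2), of which another isoform is made in most cell types of the body. The ratio of a slow gene to its fast partner in the same library does not depend on how much muscle was in the sample, unless other cells make a partner, as they do Atp2a2, whereas the level of each gene alone does.

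The fast myosin genes are near copies of each other, which bears on how reads were assigned. The stretch of coding sequence below starts at coding base 31 of Myh4, Myh1 and Myh2 and at base 28 of Myh7 and runs for 90 bases. It was read from GENCODE M21 transcripts, and capitals mark bases that differ from Myh4. Myh1 differed at 2 bases, Myh2 at 8 and Myh7 at 25.
Myh4: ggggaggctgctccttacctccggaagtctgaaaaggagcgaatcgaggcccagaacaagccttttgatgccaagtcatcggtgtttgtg
Myh1: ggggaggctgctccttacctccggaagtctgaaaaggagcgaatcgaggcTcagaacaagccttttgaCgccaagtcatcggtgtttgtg
Myh2: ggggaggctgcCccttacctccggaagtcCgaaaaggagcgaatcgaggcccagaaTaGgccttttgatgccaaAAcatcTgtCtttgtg
Myh7: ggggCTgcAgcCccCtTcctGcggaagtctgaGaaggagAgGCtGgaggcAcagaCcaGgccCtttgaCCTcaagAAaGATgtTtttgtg
Over the whole transcript, 18.9% of the runs of 50 bases in Myh4 were also found in another sarcomeric myosin, as were 26.7% in Myh1 and 26.9% in Myh2, but only 0.21% in Myh7. The levels of the fast myosins may therefore share reads. The troponin and calcium pump genes shared no run of 50 bases with their partners. The strand of the libraries is not stated, and where genes overlap on opposite strands a read may have gone to either.

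Myh2, Myh1 and Myh4 also stand in a row on chromosome 11. Their promoters are shown because the 3 genes diverged in 1 library described below. Each runs from 250 bases before to 50 bases after the start of the gene (RefSeq, GRCm38.p6, plus strand). Myh4 lies at chr11:67237562-67237861, Myh1 at chr11:67199852-67200151 and Myh2 at chr11:67170777-67171076, and the 3 windows read as follows. Capitals mark matches on either strand to a TATA box (TATAAA), an MCAT element (CATTCC), a MEF2 site or a CArG box.
Myh4: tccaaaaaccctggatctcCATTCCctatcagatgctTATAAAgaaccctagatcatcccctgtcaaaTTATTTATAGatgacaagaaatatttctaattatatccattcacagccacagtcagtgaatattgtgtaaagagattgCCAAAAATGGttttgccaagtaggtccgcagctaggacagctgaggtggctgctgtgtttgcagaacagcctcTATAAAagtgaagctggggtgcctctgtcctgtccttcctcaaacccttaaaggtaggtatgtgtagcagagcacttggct
Myh1: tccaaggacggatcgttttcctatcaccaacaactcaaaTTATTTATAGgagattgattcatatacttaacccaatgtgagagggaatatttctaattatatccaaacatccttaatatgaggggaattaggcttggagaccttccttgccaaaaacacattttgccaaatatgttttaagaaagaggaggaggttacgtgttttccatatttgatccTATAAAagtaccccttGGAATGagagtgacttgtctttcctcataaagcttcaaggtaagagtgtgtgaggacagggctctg
Myh2: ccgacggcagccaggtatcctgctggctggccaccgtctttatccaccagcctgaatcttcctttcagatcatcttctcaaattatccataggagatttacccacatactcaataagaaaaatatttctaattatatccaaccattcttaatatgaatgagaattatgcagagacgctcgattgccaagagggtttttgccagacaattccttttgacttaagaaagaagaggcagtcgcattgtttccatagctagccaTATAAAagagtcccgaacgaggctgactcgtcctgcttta
The Myh4 window held 3 TATA box matches, and 1 match each to MCAT, the MEF2 site and the CArG box. The Myh1 window held 2, 1, 1 and 0 of these, and the Myh2 window held a single TATA box match. In Myh4 and Myh1 the MEF2 match contains 1 of the TATA box matches on the opposite strand. Of 32851 promoter windows of this length, 13.6% held the TATA box, 14.7% MCAT, 3.19% the MEF2 site and 1.63% the CArG box. A match is a description of the letters and not a measured binding site.

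Muscle was abundant in every library. The 10 fibre-type genes took 4.23% to 8.17% of all counts, and library totals ran from 12769059 to 18701063 counts. Levels are given as CPM, which puts all libraries on the same total count, after TMM scaling, a correction for the makeup of each library. Day 3 replicate 4 stands apart. Myh4 ranked 14 by count among all genes there, against 1 or 2 in the other 8 libraries. Myog, a factor of differentiating muscle precursors, was at 288 CPM there against 1.97 to 26.2 CPM elsewhere, and Chrng, the embryonic subunit of the muscle acetylcholine receptor, at 84.7 CPM against 0 to 1.30 CPM. The summed level of the 6 satellite cell and myoblast genes was 17.3 to 31.5 CPM on day 0, 47.1 to 531 CPM on day 3 and 19.3 to 34.1 CPM on day 9. Day 0 replicate 3 held heart transcripts, with Myh6, the main heart myosin of adult mice, at 494 CPM against 1.64 to 15.8 CPM in the other libraries. The summed level of the 10 cardiac genes was 131 to 958 CPM on day 0, 52.6 to 259 CPM on day 3 and 173 to 346 CPM on day 9. Most of the day 9 sum was 1 gene, Actc1, at 292, 159 and 142 CPM in replicates 1, 3 and 4, with Myh6 at 1.64 to 2.26 CPM. In day 3 replicate 4 most of it was Actc1 (144 CPM) and Tnnt2 (89.5 CPM). The sum is therefore not a measure of heart content alone. The 6 macrophage genes summed to 1310 to 1388 CPM on day 0, 2097 to 3204 CPM on day 3 and 3671 to 4592 CPM on day 9. Lung content differed most among the day 3 libraries. The 6 genes of alveolar type 2 cells, the surfactant cells of the lung, summed to 4500 to 4952 CPM on day 0, to 112.6, 5354 and 54.4 CPM in replicates 1, 3 and 4 of day 3, and to 527 to 2486 CPM on day 9. The 6 cartilage genes summed to 36.5 to 519 CPM, 18.4 to 1400 CPM and 22.1 to 1813 CPM on the 3 days. For heart, edgeR called 1 of the 60 results of the 10 genes (2 scales and 3 comparisons) with the cardiac level as a covariate and 0 without day 0 replicate 3. The part of the satellite cell, macrophage, lung and cartilage lists was not tested, beyond the values given without single libraries. In bulk tissue, fewer muscle cells and less RNA per cell cannot be told apart.

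The muscle in these samples was fast muscle. Per kilobase of transcript, and before TMM scaling, the median level over the 9 libraries was highest for Tnnt3 at 6501 CPM, then Myh4 at 3737, Atp2a1 at 3637 and Tnni2 at 3151 CPM. Myh1 followed at 1107 and Myh2 at 718.6 CPM. The slow genes were lower, with Tnnt1 at 124.1, Atp2a2 at 122.0, Myh7 at 98.5 and Tnni1 at 35.3 CPM per kilobase. Within each library every one of the 6 fast genes was above every one of the 4 slow genes. Over libraries, Tnni2 and Myh1 were the only neighbours in this order whose ranges did not overlap, so the other steps are not set beyond the spread.

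As a share of the adult myosin pool, which here is the sum of Myh4, Myh1, Myh2 and Myh7 per kilobase, Myh4 held 76.6%, 66.2% and 65.9% in replicates 1, 2 and 3 of day 0. On day 3 it held 59.9%, 67.6% and 26.2% in replicates 1, 3 and 4, and on day 9 it held 66.2%, 68.9% and 61.1% in the same order. In 8 libraries most of the pool was IIB myosin, and only day 3 replicate 4 was outside that range. In that library Myh1 held 35.0%, Myh2 30.7% and Myh7 8.09% of the pool. Slow myosin (Myh7) held 1.01% to 1.59% on day 0, 1.92% and 2.51% in the other two day 3 libraries, and 1.43% to 2.35% on day 9. These shares are a description with no test.

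**Figure D1:**
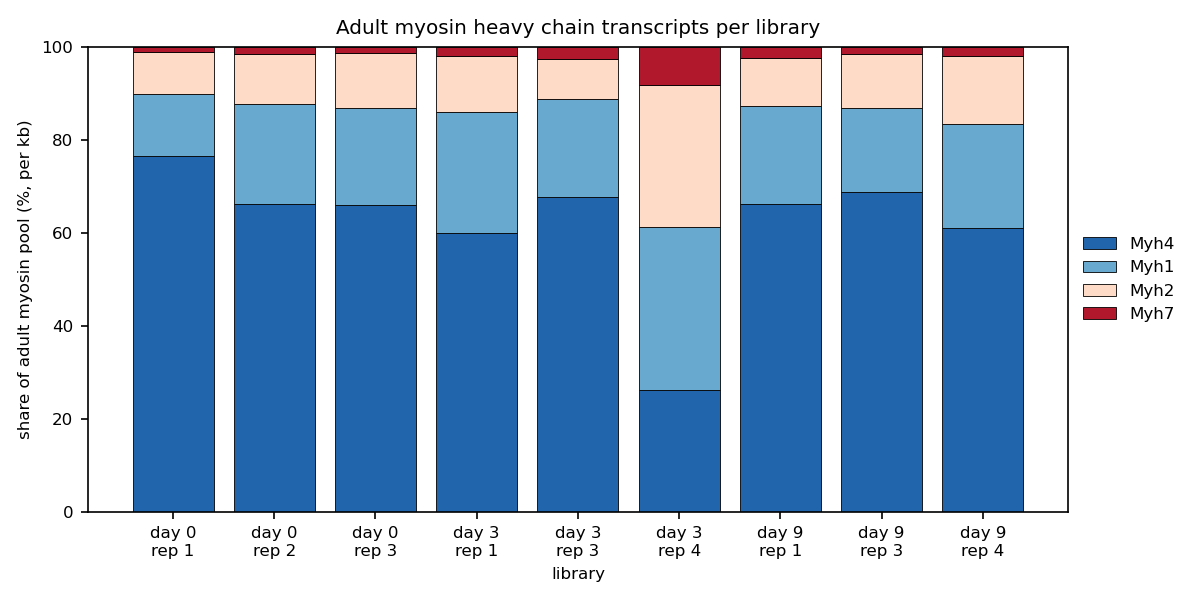
Share of Myh4 (IIB), Myh1 (IIX), Myh2 (IIA) and Myh7 (slow) in the summed adult myosin heavy chain transcripts of each library, in percent of counts per kilobase, with 1 bar per library. Myh4 takes 59.9% or more in 8 libraries and 26.2% in day 3 replicate 4, where Myh1 and Myh2 each take more than 30%.

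None of the 10 genes passed in any comparison of 2 days. By edgeR's quasi-likelihood test on the all-count scale, with Benjamini-Hochberg adjustment over all genes and a threshold of 0.05, 0 of 10 passed in day 3 against day 0 (16.1% of all tested genes did), 0 in day 9 against day 0 (20.7%) and 0 in day 9 against day 3 (8.89%). At an unadjusted p under 0.05 there were 2, 1 and 1 of the 10, and the share of all genes at that threshold was not counted. DESeq2 called 1, 2 and 1 of the 10, beside 3366, 4070 and 2401 of all genes, and limma-voom called none of the 10. The test for a difference between any days passed for 1 gene, Atp2a2 (adjusted p = 0.0400), against 25.7% of all tested genes.

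Myh4 had 38440, 30490 and 24810 CPM in replicates 1, 2 and 3 of day 0, 28470, 13900 and 6683 CPM in replicates 1, 3 and 4 of day 3, and 21040, 21560 and 14930 CPM in replicates 1, 3 and 4 of day 9. Every day 9 library was below every day 0 library, while day 3 spanned both. The log2 fold change was -0.93 in day 3 against day 0 (SE 0.484, edgeR adjusted p = 0.213) and -0.70 in day 9 against day 0 (SE 0.482, edgeR adjusted p = 0.325). The IIX gene Myh1 had 6752, 9988 and 7963 CPM on day 0, 12490, 4412 and 9023 CPM on day 3, and 6771, 5655 and 5512 CPM on day 9, by replicate as above. Its day 3 libraries held both the highest and the lowest value of the 9. The IIA gene Myh2 had 4604, 5022 and 4519 CPM on day 0, 5819, 1788 and 7926 CPM on day 3, and 3349, 3731 and 3629 CPM on day 9. Its highest level was in day 3 replicate 4, where Myh4 was lowest.

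Slow myosin was, like Myh2, highest in day 3 replicate 4. Myh7 had 523, 756 and 495 CPM on day 0, 946, 535 and 2136 CPM on day 3, and 772, 462 and 499 CPM on day 9. One library, day 3 replicate 4, was far above any other. Its log2 fold change in day 3 against day 0 was 1.03 (SE 0.466, edgeR adjusted p = 0.163).

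The fast troponins varied together. Tnnt3 had 10930, 10070 and 8226 CPM on day 0, 9356, 4577 and 7141 CPM on day 3, and 6683, 6725 and 5258 CPM on day 9, so all day 9 libraries were below all day 0 libraries. Tnni2 had 3991, 3665 and 3016 CPM on day 0, 3334, 1682 and 2672 CPM on day 3, and 2394, 2311 and 1831 CPM on day 9, with the same order of groups. In day 9 against day 0 the log2 fold change was -0.65 for Tnnt3 (SE 0.288, edgeR adjusted p = 0.147) and -0.71 for Tnni2 (SE 0.269, edgeR adjusted p = 0.0974). Log2 levels of Tnnt3 and Tnni2 correlated with r = 0.996 over the 9 libraries, which share their muscle content.

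The slow troponins were highest in day 3 replicate 4. Tnnt1 had 93.1, 131 and 84.2 CPM on day 0, 140, 101 and 774 CPM on day 3, and 176, 127 and 138 CPM on day 9. Tnni1 had 30.4, 42.3 and 27.7 CPM on day 0, 53.0, 27.3 and 178 CPM on day 3, and 68.0, 36.6 and 40.9 CPM on day 9. Apart from that 1 library, the days overlapped for both genes. Their log2 levels correlated with r = 0.973, and Tnnt1 and Myh7 with r = 0.912, over the same 9 libraries.

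The calcium pumps differed likewise. Atp2a1 had 20240, 19990 and 16500 CPM on day 0, 19780, 8953 and 8390 CPM on day 3, and 12720, 12090 and 10810 CPM on day 9, with day 9 below day 0 throughout. Atp2a2 had 463, 561 and 698 CPM on day 0, 792, 900 and 2262 CPM on day 3, and 535, 470 and 509 CPM on day 9, so every day 3 library lay above every library of the other days. It was the gene nearest to the threshold, with a log2 fold change of 1.20 in day 3 against day 0 (SE 0.382, edgeR adjusted p = 0.0648) and of -1.39 in day 9 against day 3 (SE 0.383, edgeR adjusted p = 0.0590). Groups of libraries that did not overlap were also found upward in 24.2% of all tested genes in day 3 against day 0, where Atp2a2 was the 1 of 10. Downward they were found in 28.2% in day 9 against day 0 (5 of 10, namely Myh4, Myh2, Tnnt3, Tnni2 and Atp2a1) and in 14.1% in day 9 against day 3 (1 of 10, Atp2a2).

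The authors' deposited table gives FDR-adjusted p-values for the same 3 comparisons. In day 3 against day 0 the authors' deposited table has an FDR p of 0.00512 for Tnnt1 (log2 fold change 1.72), 0.0177 for Tnni1 (1.36) and 0.0158 for Atp2a2 (1.20), and no other of the 10 is called there. These genes were highest in day 3 replicate 4. With single libraries left out, the edgeR log2 fold change ran from 0.23 to 2.09 for Tnnt1 in this comparison. It ran from 0.26 to 1.72 for Tnni1 and from 0.56 to 1.46 for Atp2a2. In the authors' deposited table Atp2a2 is also called in day 9 against day 3, with an FDR p of 0.00465 and a log2 fold change of -1.39. For day 9 against day 0 the authors' deposited table calls none of the 10. These values were read for the 10 genes alone, so the share of all genes that the authors' comparisons call is not known here.

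**Figure D2:**
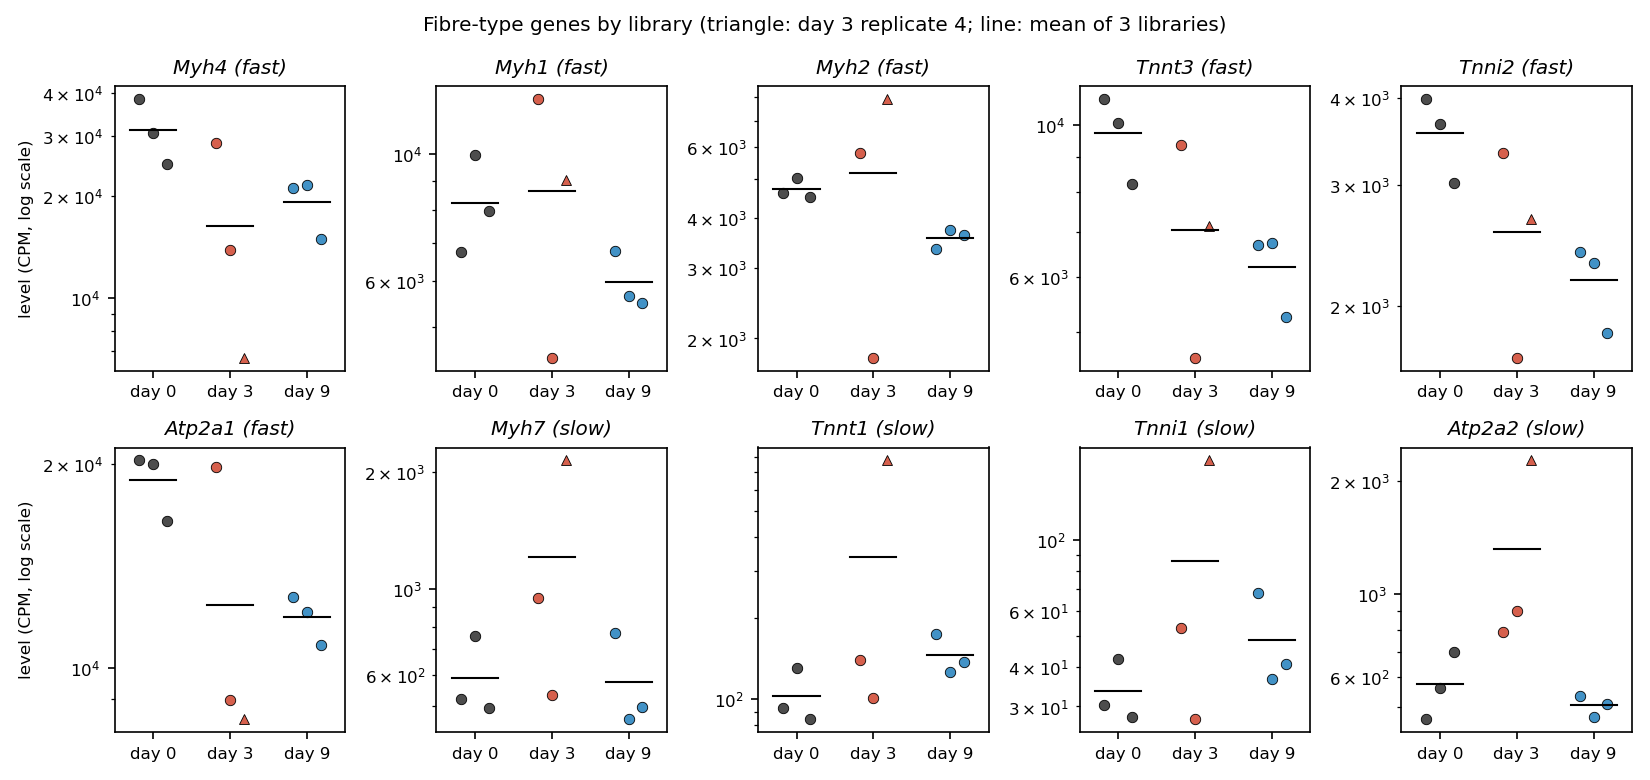
Level of each of the 10 genes in CPM after TMM scaling, on a log axis, with 1 point per library and a line at the mean of the 3 libraries of a day. The triangle is day 3 replicate 4, which is the lowest of 9 for Myh4 (6683 CPM) and the highest for Myh7, Tnnt1, Tnni1 and Atp2a2.

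To set muscle content aside, the counts of each library were also scaled to the summed counts of 10 genes used by both fast and slow fibres (Acta1, Ckm, Neb, Ryr1, Cacna1s, Klhl41, Sgca, Jsrp1, Lmod3 and Cmya5). These took 2.57% to 4.16% of all counts. On this muscle scale the median log2 fold change over all tested genes was 0.24 in day 3 against day 0, 0.54 in day 9 against day 0 and 0.29 in day 9 against day 3, and a change there is one relative to muscle transcripts. The 10 reference genes were not fully even among themselves. Acta1 was the largest of them in every library and so weighed most in the sum. On the muscle scale it held 14040, 14200 and 18890 CPM in replicates 1, 3 and 4 of day 3. It held 12910 to 14070 CPM on day 0 and 14900 to 15540 CPM on day 9. Ckm, the muscle creatine kinase, held 7152, 6507 and 4369 CPM on the muscle scale in replicates 1, 3 and 4 of day 3 against 8841 to 9418 CPM on day 0, and Klhl41, a sarcomere maintenance protein, held 486, 446 and 1075 CPM against 297 to 327 CPM.

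On the muscle scale several fast genes lay below, and 2 of the slow genes above, their day 0 values on day 3, though none passed. Tnnt3 stood at 6791, 6428 and 5770 CPM in replicates 1, 3 and 4 of day 3, against 8308, 7920 and 8335 CPM in replicates 1, 2 and 3 of day 0. Tnni2 stood at 2420, 2363 and 2158 CPM on day 3, against 3035, 2883 and 3056 CPM on day 0. Neither pair of groups overlapped, and the libraries within a day were closer than on the all-count scale. Atp2a1 stood at 14360, 12580 and 6778 CPM on day 3, against 15390, 15730 and 16720 CPM on day 0. Myh4 stood at 20660, 19530 and 5399 CPM on day 3, against 29230, 23980 and 25140 CPM on day 0. These 4 fast genes were lower in every day 3 library, which held for 3.42% of all tested genes. The other two fast genes overlapped between these days. Myh1 stood at 9064, 6197 and 7290 CPM on day 3, against 5134, 7857 and 8068 CPM on day 0, and Myh2 at 4224, 2512 and 6404 CPM on day 3, against 3501, 3950 and 4578 CPM on day 0. For both, the means of the 2 days differed by less than the SD within a day. Of the slow genes, Myh7 stood at 687, 751 and 1726 CPM on day 3, against 397, 595 and 502 CPM on day 0. Tnni1 stood at 38.5, 38.4 and 143.6 CPM on day 3, against 23.1, 33.3 and 28.1 CPM on day 0. These 2 were higher in every day 3 library, which held for 16.3% of all tested genes. The other slow genes overlapped between these days. Tnnt1 stood at 101.5, 141.9 and 625 CPM on day 3, against 70.8, 102.8 and 85.3 CPM on day 0. Atp2a2 stood at 575, 1264 and 1827 CPM on day 3, against 352, 442 and 708 CPM on day 0. On day 9 Atp2a1 and Tnni2 were still below every day 0 library (2 of 10, with 6% of all tested genes). Atp2a1, Tnni2 and Tnnt3 were above every day 3 library (3 of 10, with 16.4% of all tested genes), and none of the 10 was below (2.26%).

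By edgeR on the muscle scale 0 of 10 genes passed in day 3 against day 0, where 5.35% of all tested genes did. At an unadjusted p under 0.05 there were 6, and the share of all genes at that threshold was not counted. DESeq2 called 4 of the 10, beside 1287 of all genes. The smallest edgeR p-values were those of Atp2a2, with a log2 fold change of 1.29 (SE 0.388, edgeR adjusted p = 0.0870), and Myh7, with 1.08 (SE 0.350, edgeR adjusted p = 0.105). For Tnnt1 the log2 fold change was 1.75 (SE 0.607, edgeR adjusted p = 0.146) and for Tnnt3 it was -0.37 (SE 0.156, edgeR adjusted p = 0.210). With single libraries left out, the log2 fold change of Tnnt1 ran from 0.50 to 2.15. In day 9 against day 0 again 0 of 10 passed, where 18.3% of all tested genes did, with 0 at an unadjusted p under 0.05 and 0 with DESeq2. Day 9 against day 3 also had 0 that passed, against 3.49% of all tested genes, with 1 at an unadjusted p under 0.05 (Atp2a2) and 0 with DESeq2. Limma-voom called none of the 10 in any of these. The calls depended on the day 3 libraries. Over both scales and the 3 comparisons, 60 results in all, edgeR called 8 without day 3 replicate 1, 11 without replicate 3, 2 without replicate 4, and 0 with all libraries or without any single day 0 or day 9 library. The count over all tested genes moved too. On the all-count scale 2383 genes passed in day 3 against day 0 with all libraries, 2193 without day 3 replicate 1 and 5153 without replicate 3. In day 9 against day 0 these counts were 3057, 3410 and 4989, and in day 9 against day 3 they were 1315, 983 and 4086. On the muscle scale 3190, 6844 and 7351 genes passed in the 3 comparisons without replicate 3, beside 791, 2701 and 516 with all libraries. The other counts are not given beside these calls, so the calls are not shown to exceed the share of all genes.

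The slow troponins had higher day 9 than day 0 levels on the muscle scale, without passing. Tnnt1 averaged 180 ± 25.0 CPM on day 9 and 86.3 ± 16.0 CPM on day 0 (SD, n = 3 each), and Tnni1 averaged 59.2 ± 17.4 and 28.2 ± 5.1 CPM. In neither gene did the 2 days overlap, but 54.9% of all tested genes were also higher without overlap. The log2 fold changes were 1.06 for Tnnt1 (SE 0.597, edgeR adjusted p = 0.225) and 1.07 for Tnni1 (SE 0.494, edgeR adjusted p = 0.145). Without day 3 replicate 4, which takes no part in the means of days 0 and 9 but adds to the spread of the fit, both passed (edgeR adjusted p = 0.0125 and 0.0201). With all libraries 18.3% of all tested genes passed in this comparison. The share without that library is not given beside these calls, so they are not shown to exceed it. Both genes also passed in a fit of only the 6 libraries of these 2 days, where 7547 of all tested genes passed.

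Ratios of a slow gene to its fast partner were then compared within each library, as log2 of the ratio of counts with 0.5 added to each. A day effect was tested by an exact permutation test over all arrangements of the 9 libraries into 3 days, whose smallest possible p is 0.00357, and adjusted over the 6 ratios. Between 2 days, with 3 libraries against 3, an exact test cannot go below p = 0.1.

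For troponin T, Tnnt1/Tnnt3 was -6.87, -6.27 and -6.61 in replicates 1, 2 and 3 of day 0, -6.06, -5.50 and -3.21 in replicates 1, 3 and 4 of day 3, and -5.25, -5.73 and -5.26 in replicates 1, 3 and 4 of day 9. For troponin I, Tnni1/Tnni2 was -7.04, -6.44 and -6.76 on day 0, -5.97, -5.94 and -3.91 on day 3, and -5.14, -5.98 and -5.48 on day 9. In both pairs all 6 later libraries lay above all 3 day 0 libraries, so this order does not rest on day 3 replicate 4. In counts, Tnnt1 amounted to 0.853% to 1.30% of Tnnt3 on day 0, 1.5% to 10.8% on day 3 and 1.89% to 2.63% on day 9. The difference in day 9 against day 0 was 1.17 for troponin T (SE 0.236, 2.25-fold, exact p = 0.1) and 1.21 for troponin I (SE 0.299, 2.32-fold, exact p = 0.1). The difference in day 3 against day 0 was 1.66 and 1.47 (SE 0.891 and 0.705, exact p = 0.1 each), and 0.80 and 0.79 without day 3 replicate 4. Over the 3 days the exact permutation test gave p = 0.132 for troponin T and 0.0821 for troponin I, or 0.171 and 0.164 adjusted, so neither passed. Without day 3 replicate 4 the exact permutation test gave 0.0143 and 0.0179, or 0.0536 each after adjustment, so again neither passed.

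For myosin, Myh7/Myh4 was -6.20, -5.33 and -5.65 on day 0, -4.91, -4.70 and -1.65 on day 3, and -4.77, -5.54 and -4.90 on day 9. All day 3 libraries were above all day 0 libraries, and day 9 overlapped day 0. The difference in day 3 against day 0 was 1.97 (SE 1.09, exact p = 0.1), and 0.92 without day 3 replicate 4. The exact permutation test over the 3 days gave p = 0.0321, or 0.164 adjusted. Within the fast chains, Myh2/Myh4 was -3.06, -2.60 and -2.46 on day 0, -2.29, -2.96 and 0.25 on day 3, and -2.65, -2.53 and -2.04 on day 9 (exact p = 0.593, adjusted 0.593). Myh1/Myh4 was -2.51, -1.61 and -1.64 on day 0, -1.19, -1.66 and 0.43 on day 3, and -1.64, -1.93 and -1.44 on day 9 (exact p = 0.143, adjusted 0.171). In both of these the days overlapped, and the positive values, at which IIA or IIX transcripts outnumber IIB, were in day 3 replicate 4.

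For the calcium pumps, Atp2a2/Atp2a1 was -5.45, -5.15 and -4.56 on day 0, -4.64, -3.31 and -1.89 on day 3, and -4.57, -4.69 and -4.41 on day 9. Day 0 replicate 3, the library with heart transcripts, had the highest ratio of day 0 and set the overlap with day 3. The difference in day 3 against day 0 was 1.77 (SE 0.836, exact p = 0.2), and 1.08 without day 3 replicate 4. Over the 3 days the exact permutation test gave p = 0.0750, or 0.164 adjusted.

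**Figure D3:**
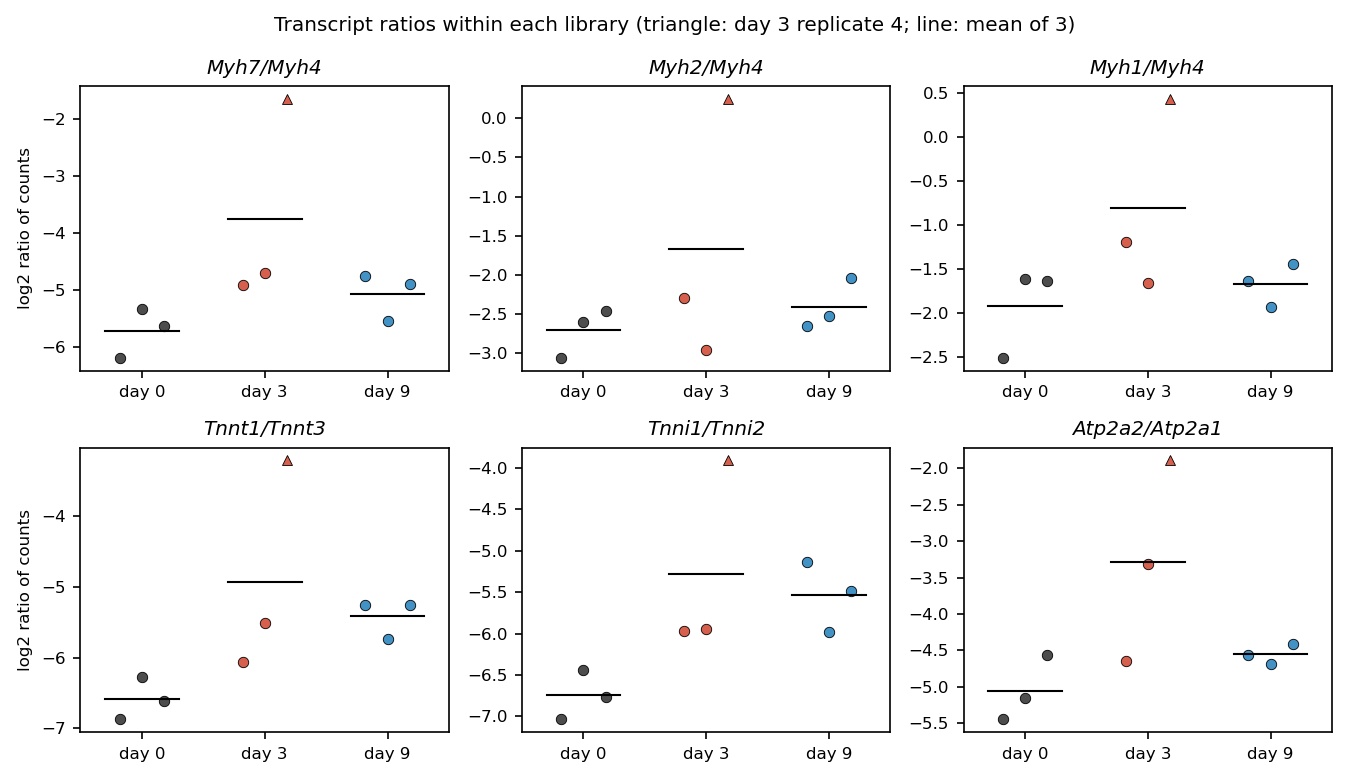
Log2 ratio of counts between 2 genes in the same library, with 1 point per library, a line at the mean of the 3 libraries of a day and a triangle for day 3 replicate 4. In both troponin ratios the 6 libraries of days 3 and 9 lie above the 3 of day 0, while in every panel day 3 replicate 4 is the highest.

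In a wider list of 14 adult fast fibre genes, none of them among the 10, some genes passed. The list was chosen with earlier results of these data known, so it is not an independent check on the 10. On the muscle scale 5 of 14 fell and none rose in day 3 against day 0 by edgeR, where 0.501% of all tested genes fell. With single libraries left out the count was 3 without day 0 replicate 1 or 2, 9 without day 3 replicate 1, and 5 without day 3 replicate 4. The list's median log2 fold change was -0.85, and -0.54 without that library, beside 0.24 over all tested genes. Of the 14 genes, 13 were lower in every day 3 library than in every day 0 library, beside 3.42% of all tested genes. In day 9 against day 3, 6 of 14 rose and none fell, where 3.09% of all tested genes rose, with a median of 0.77, and 0.70 without day 3 replicate 4. That count was 3 without day 9 replicate 4, 4 without day 9 replicate 1 or 3, and 8 without day 3 replicate 3. In day 9 against day 0 none rose or fell by edgeR or DESeq2, with a median of -0.02, and in single alternatives at most 3 of 14 passed. On the all-count scale 5 of 14 fell in day 3 against day 0 (3.25% of all tested genes did), and none passed in day 9 against either other day by edgeR. These counts depended on single libraries and on the fit. In day 3 against day 0, 13 fell without day 3 replicate 1, 0 without day 0 replicate 1 or 2 or with only the 6 libraries of those days, 1 without day 0 replicate 3, day 3 replicate 4 or day 9 replicate 3, 2 without day 9 replicate 4, 3 without day 9 replicate 1, and 9 with DESeq2. Over all tested genes, 481 fell in the main fit, 614 without day 3 replicate 1 and 1227 with DESeq2. For day 9 against day 0, 9 fell with only the 6 libraries of those days, 4 without day 3 replicate 1, and 2 with DESeq2 or without day 3 replicate 3 or 4. Of all tested genes, 2960 fell with those 6 libraries, 1116 without day 3 replicate 1, 1568 with DESeq2 and 2206 without day 3 replicate 3. The comparison of day 9 against day 3 had 4 that rose with DESeq2 and 4 without day 3 replicate 1, beside 1368 and 619 of all tested genes. The summed level of the list was 25110 to 34730 CPM on day 0, 11110 to 24170 CPM on day 3 and 17800 to 23740 CPM on day 9. Both comparisons with day 3 share its libraries, so they are not independent.

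Myl1, the essential light chain of fast myosin, stood at 1793, 1525 and 1763 CPM on the muscle scale in replicates 1, 3 and 4 of day 3, against 3744, 3509 and 3379 CPM in replicates 1, 2 and 3 of day 0. On day 9 it stood at 4393, 4103 and 3481 CPM. All day 3 values were below all others, with a log2 fold change of -1.06 in day 3 against day 0 (SE 0.175, edgeR adjusted p = 0.00509) and of 1.24 in day 9 against day 3 (SE 0.176, edgeR adjusted p = 0.00368). Casq1, the calcium store protein of the fast sarcoplasmic reticulum, stood at 752, 523 and 581 CPM on day 3, against 1335, 1403 and 1407 CPM on day 0, and at 1688, 1658 and 1429 CPM on day 9. It fell in day 3 against day 0 (log2 fold change -1.16, edgeR adjusted p = 0.00619) and rose in day 9 against day 3 (1.36, edgeR adjusted p = 0.00412). Myoz3, a Z-disc protein of fast fibres, and Eno3, the muscle enolase of glycolysis, did the same, with log2 fold changes of -1.47 and -1.37 in day 3 against day 0 (edgeR adjusted p = 0.00700 and 0.0112) and 1.45 and 1.45 in day 9 against day 3 (edgeR adjusted p = 0.0110 and 0.0113). The calls of Myl1 and Casq1 in day 3 against day 0 ended with the replicate number as a block (edgeR adjusted p = 0.058 and 0.056). The call of Eno3 in day 3 against day 0 ended without day 0 replicate 1 or 2, with adjusted p up to 0.0590. The call of Myoz3 in day 9 against day 3 ended without day 9 replicate 4 (adjusted p = 0.0555). Unlike Myl1 and Casq1, the fast genes Myh4, Tnnt3, Tnni2 and Atp2a1 did not pass in these comparisons, though their sign was the same, and Myh1 and Myh2 overlapped between the days.

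In the list of 13 other slow fibre genes few passed. By edgeR on the muscle scale 1 of 13 fell and none rose in day 3 against day 0 (0.501% and 4.85% of all tested genes did). There 1 rose in day 9 against day 0 (18.1%) and none passed in day 9 against day 3 (3.49%). The median in day 3 against day 0 was 0.68, but -0.05 without day 3 replicate 4. In day 9 against day 3 the median was -0.28, but 0.48 without that library. The gene that fell was Car3, carbonic anhydrase III of slow muscle and fat, which stood at 1473, 1420 and 678 CPM on day 3, against 2880, 2433 and 2845 CPM on day 0 (log2 fold change -1.19, edgeR adjusted p = 0.0264). Its call ended without any 1 of the day 0 libraries, with adjusted p up to 0.120 over all alternatives. The gene that rose on day 9, named after its values were seen, was Tpm3, a slow tropomyosin that many other cell types also make, with a log2 fold change of 0.85 (SE 0.259, edgeR adjusted p = 0.0411).

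**Figure D4:**
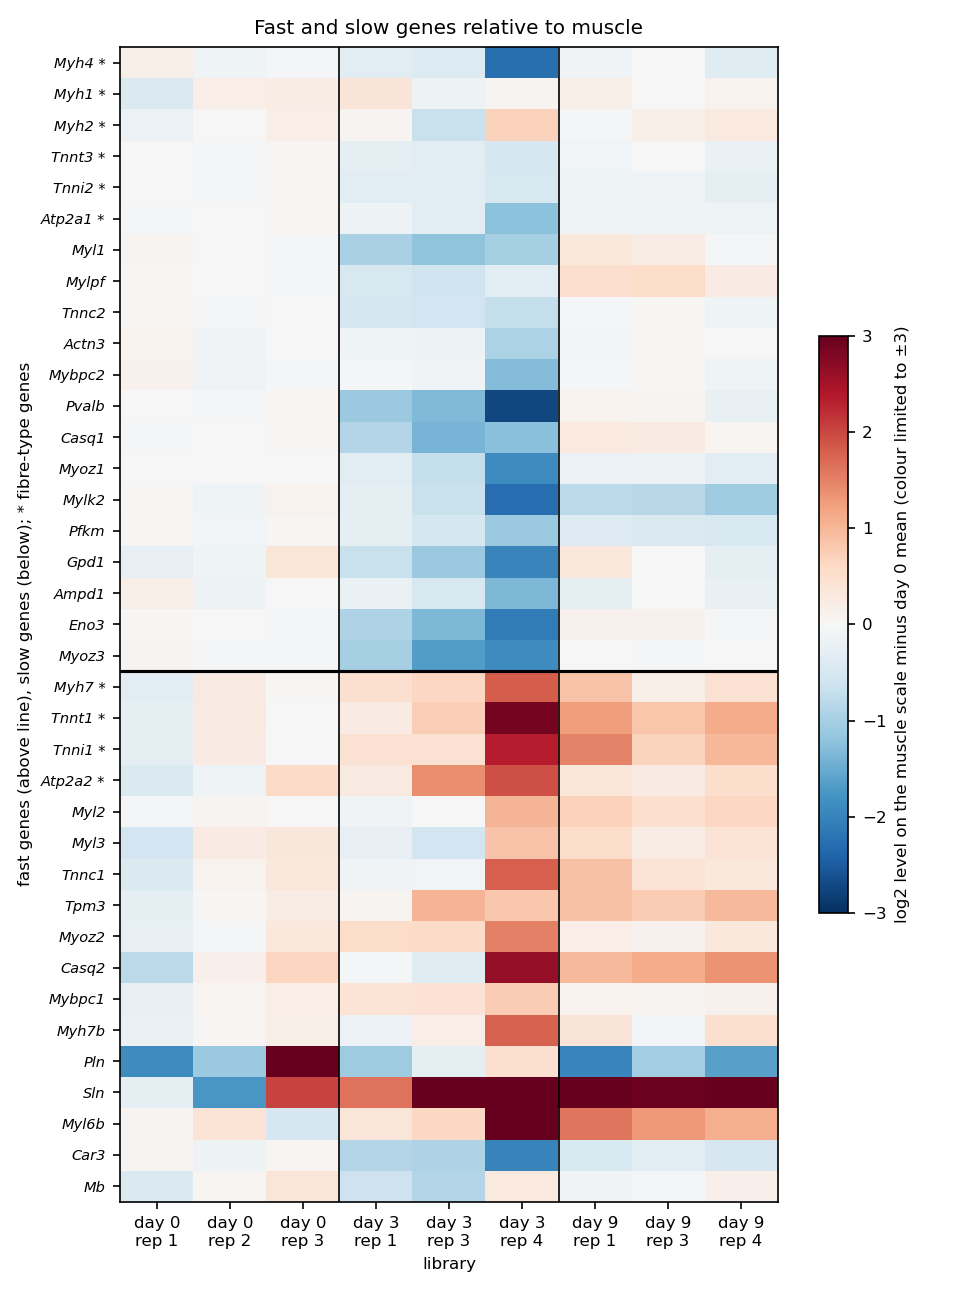
Log2 level on the muscle scale minus the day 0 mean for 20 fast and 17 slow genes (rows) in the 9 libraries (columns), with the 10 fibre-type genes starred and colours limited to 3 in either direction. Most fast genes are below their day 0 mean in all 3 day 3 libraries and near it on day 9, while most slow genes are highest in day 3 replicate 4.

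Of 14 regulators of fibre type, 1 rose in day 3 against day 0 on the muscle scale (4.85% of all tested genes did). In the same way 1 rose in day 9 against day 0 (18.1%) and 2 in day 9 against day 3 (3.09%), and none fell. Prox1, a homeobox factor that maintains slow fibres and is also made by lymphatic vessels, had 30.8, 18.2 and 44.3 CPM on the muscle scale on day 9, against 5.25, 4.22 and 6.10 CPM on day 0. Its log2 fold change was 2.58 in day 9 against day 0 (SE 0.466, edgeR adjusted p = 0.00345, at most 0.0257 over all alternatives) and 1.99 in day 9 against day 3 (SE 0.456, edgeR adjusted p = 0.0371, up to 0.177). Ppargc1a, the coactivator of mitochondrial genes, had 35.4, 67.1 and 69.6 CPM on day 9, against 18.7, 14.1 and 28.3 CPM on day 3 (log2 fold change 1.49, edgeR adjusted p = 0.0383, up to 0.188). Hdac4, a histone deacetylase that acts on MEF2 factors, had 46.8, 103 and 71.8 CPM on day 3, against 30.1, 28.4 and 35.7 CPM on day 0 (log2 fold change 1.23, edgeR adjusted p = 0.0418, up to 0.231). Each of the last 3 calls ended without any 1 of the day 0 libraries, and that of Hdac4 also without day 3 replicate 4 or any day 9 library. That of Prox1 in day 9 against day 3 also ended without day 3 replicate 1 or day 9 replicate 1 or 4, and that of Ppargc1a without day 3 replicate 1 or day 9 replicate 3 or 4.

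On the all-count scale more regulators were lower on day 9. There 4 of 14 fell and 1 rose in day 9 against day 0 (5.51% and 15.2% of all tested genes did), and 3 fell and 1 rose in day 9 against day 3 (3.69% and 5.2%). The genes that passed are named after their values were seen. Those that fell in day 9 against day 0 were Sox6, a repressor of slow genes, Tead1, a factor that binds the MCAT element, Tbx15, a T-box factor of glycolytic fibres, and Vgll2, a cofactor of TEAD factors, with log2 fold changes of -1.03, -0.75, -1.02 and -1.18 (edgeR adjusted p = 0.0279, 0.0274, 0.0164 and 0.0164). Those in day 9 against day 3 were Six4, Vgll2 and Hdac4, and the genes that rose were Prox1 in day 9 against day 0 and Nfatc1 in day 9 against day 3. With single libraries left out, 0 to 8 fell in day 9 against day 0 and 1 to 9 in day 9 against day 3, in both cases most without day 3 replicate 3. The median over the 14 in day 9 against day 0 was -0.61 on the all-count scale and -0.09 on the muscle scale. The summed level of the 10 pan-fibre reference genes was also lower on day 9, at 23850 to 27930 CPM, against 31730 to 42280 CPM on day 0.

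Developmental and other sarcomeric myosins were scarce beside the adult chains. Of 5 such genes 4 were tested and 0 passed by edgeR in any comparison. Embryonic Myh3 had 5.09, 2.5 and 2.93 CPM on day 0, 8.97, 5.46 and 129 CPM on day 3, and 37.9, 6.46 and 23.9 CPM on day 9. Perinatal Myh8 had 4.45, 6.43 and 4.05 CPM on day 0, 7.78, 3.99 and 54.8 CPM on day 3, and 79.4, 5.23 and 44.3 CPM on day 9. Both were high in day 3 replicate 4 and in day 9 replicates 1 and 4, and low in the other libraries. Of the runs of 50 bases in Myh8, 21.4% were shared with other sarcomeric myosins.

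Over the 9 libraries, the genes outside the 10 whose log2 CPM was most like that of Myh4 were Myoc (r = 0.983), Myoz1 (0.969), Tmem233 (0.967), Lrrc38 (0.965) and Atp13a5 (0.965). Myoz1 is a Z-disc protein of fast fibres. Most like Myh7 were Sel1l3 (r = 0.987), Med29 (0.985), Mrpl40 (0.984), Prelid3b (0.978) and Tars2 (0.977). These correlations are a description over libraries that share their days and depth, and day 3 replicate 4 is the lowest of 9 for Myh4 and the highest for Myh7.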

How the data were processed

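The authors deposited 1 table of 25652 genes with raw counts of reads per gene and library, log2 fold changes of the authors' own comparisons and an FDR-adjusted p-value for each, per the file headers. No source used here names the aligner or the counting program. The builds in the submitters' processing notes are GRCm38 and mm10. File coordinates were not used. A further 27 per-sample columns were not used. Totals were 12769059 to 18701063 counts, and no 2 libraries of a day agreed within sampling noise.

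Counts were tested with edgeR 4.0.16 (quasi-likelihood, robust) in R 4.3.3 after filterByExpr by day, on all 9 libraries with 1 mean per day, 6 residual degrees of freedom and two-sided tests. The all-count scale used TMM factors. The muscle scale used the summed counts of the 10 reference genes as library size, gave those genes no test, and leaves the error of that sum out of the p-values. Adjusted p is Benjamini-Hochberg over all tested genes, threshold 0.05. Alternatives were DESeq2 1.42.0 and its size factors, limma-voom 3.58.1, no low-count filter, other references and fits, and each library left out. Scripts were tested on simulated data. Figures used matplotlib 3.10.9. Genes named beyond the 10 were, per list, up to 4 with the smallest p for any difference between days on the muscle scale among those that passed, and for Myh4 and Myh7 the 5 most correlated genes. The genes and lists were chosen with earlier results of these data known.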

Additional observations from a re-analysis of the deposited data

How the results depend on the processing

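Counts of genes that passed, over all genes tested, moved with the choices made. On the all-count scale they were 2383 for day 3 against day 0, 3057 for day 9 against day 0 and 1315 for day 9 against day 3, the order kept here. A fit of only the 6 libraries of the 2 days gave 934, 6264 and 243, a cardiac covariate 971 and 2007 for the first 2, and DESeq2 2401 for the last. On the muscle scale they were 791, 2701 and 516. The 6-library fit gave 333, 7547 and 276, a sum of 10 other striated muscle genes as reference 505, 5423 and 3071, and, chosen after seeing the data, the geometric mean of the reference genes 5027 and 1015 for the last 2. There DESeq2 gave 1287 and 946 for day 3 against day 0 and day 9 against day 3, limma-voom 788 for day 9 against day 3, and the cardiac covariate 4417 for day 9 against day 0. Leaving out each library in turn gave 819 to 5153, 1656 to 4989 and 357 to 4086 on the all-count scale, and 209 to 3190, 920 to 6844 and 164 to 7351 on the muscle scale, in each case highest without day 3 replicate 3, the day 3 library rich in alveolar type 2 transcripts. The cause was not tested.

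With the replicate number as a block, 218, 906 and 141 genes passed on the all-count scale and 287, 1246 and 565 on the muscle scale. Deviations of same-numbered libraries correlated at -0.248 to 0.472, with both signs. Between day 9 and day 3 the values were 0.472, 0.319 and -0.248 for numbers 1, 3 and 4. So few values cannot settle whether the numbers pair the samples, and the main fit did not use the numbers. Myl1 and Casq1 in day 3 against day 0 gave adjusted p = 0.0585 and 0.0557 with the block, and none of the 10 fibre-type genes passed.

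Of 990 repeats of the 60 results of the 10 genes, 902 kept sign and side of the threshold, 40 passed where the original did not, and 48 changed sign, none of them past the threshold. No sign changed among the fold changes printed above. Calls numbered 8 with DESeq2, 8 with the 6-library fit, 11, 8 and 2 without day 3 replicate 3, 1 and 4, 2 with the striated reference, 1 with the cardiac covariate, and 0 under the other alternatives. For the ratios, the unadjusted exact p over the libraries left out ranged from 0.0107 to 0.214 for Myh7/Myh4, 0.0536 to 0.839 for Myh2/Myh4, 0.0214 to 0.471 for Myh1/Myh4, 0.0107 to 0.332 for Tnnt1/Tnnt3, 0.0179 to 0.279 for Tnni1/Tnni2 and 0.0107 to 0.161 for Atp2a2/Atp2a1. Without day 3 replicate 1, Myh7/Myh4, Tnnt1/Tnnt3 and Atp2a2/Atp2a1 passed after adjustment (exact p = 0.0107, adjusted 0.0214). With 3 libraries a day, 1 of them apart from the rest, differences of the size seen here can be missed.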
